A study of Rattus norvegicus with 6 samples.

Results

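Cell cycle and mitosis genes were followed in the kidney of diabetic rats through a list of 45 gene names, of which 10 mark S phase, 22 mark mitosis, 9 act in G1 or at the passage from G1 to S, and 4 inhibit cyclin-dependent kinases (CDKs). A gene was taken only where the table of values holds a feature of exactly that name, which was so for 31 of the 45 among 27321 features: 5 of S phase, 18 of mitosis, 4 of G1 and 4 inhibitors. Libraries were made from the IM tip, the terminal part of the kidney inner medulla, of 3 control and 3 STZ rats. All were male Sprague-Dawley rats of 3 months. Control rats received vehicle and STZ rats received streptozotocin, a toxin of insulin-producing beta cells, at 62.5 mg/kg into the tail vein, and the tissue was taken at day 15. The diabetes of the STZ rats was induced by a chemical and was of short duration. The values are read counts per feature divided by a DESeq size factor for each library, called normalized counts below, and they are not adjusted for gene length.

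A cell that divides first passes from G1 into S phase, when cyclin D and cyclin E with their kinases release E2F factors, which turn on the enzymes that make nucleotides and copy DNA. It then enters mitosis under cyclin B and Cdk1, with a set of spindle and kinetochore genes that are expressed late in the cycle and destroyed or silenced after division. In the adult kidney few tubule cells divide at any time, and in streptozotocin diabetes the early growth of the kidney is known to include both enlargement and division of tubule cells. The question here was whether transcripts of S phase and of mitosis differed between STZ and control IM tip. None of the 27 members that could be tested did so past the threshold. Among the tested members, 5 had groups that did not overlap, Cdk1, Tyms, Ccnd1, Aurka and Pcna, all lower in STZ libraries. That is 18.5% of the 27, against 20.3% of all features in either direction and 10.3% with STZ lower.

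The late genes of the cycle are known for promoters with a cell cycle homology region (CHR, searched as TTTGAA) and CCAAT boxes (searched as CCAAT), and the S phase genes for E2F sites (searched as TTTCCCGC, TTTCGCGC, TTTGCCGC and TTTGGCGC). Both strands were searched in the 250 bases before the RefSeq start of each gene on GRCr8, which 26 of the 31 members have. The promoters of Cdk1 and Tyms, the members of mitosis and S phase with the lowest p-values, and of Ccnb2, a cyclin partner of Cdk1, are printed in the direction of the gene, with every match in capitals on either strand, so that a CCAAT box can read ATTGG. The Cdk1 sequence is chr20:19265043-19265292 on the plus strand, the Ccnb2 sequence is chr8:79981659-79981908 on the minus strand and the Tyms sequence is chr9:120776084-120776333 on the minus strand.
Cdk1: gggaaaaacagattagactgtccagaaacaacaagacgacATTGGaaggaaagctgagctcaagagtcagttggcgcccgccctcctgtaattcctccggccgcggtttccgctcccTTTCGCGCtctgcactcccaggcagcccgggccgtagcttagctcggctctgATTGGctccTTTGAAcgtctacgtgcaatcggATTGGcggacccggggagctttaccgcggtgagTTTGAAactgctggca
Ccnb2: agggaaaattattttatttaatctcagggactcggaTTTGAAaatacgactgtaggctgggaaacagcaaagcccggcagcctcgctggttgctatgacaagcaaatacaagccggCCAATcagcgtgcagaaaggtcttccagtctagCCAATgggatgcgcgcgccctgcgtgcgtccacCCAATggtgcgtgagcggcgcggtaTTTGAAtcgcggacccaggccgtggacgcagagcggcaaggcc
Tyms: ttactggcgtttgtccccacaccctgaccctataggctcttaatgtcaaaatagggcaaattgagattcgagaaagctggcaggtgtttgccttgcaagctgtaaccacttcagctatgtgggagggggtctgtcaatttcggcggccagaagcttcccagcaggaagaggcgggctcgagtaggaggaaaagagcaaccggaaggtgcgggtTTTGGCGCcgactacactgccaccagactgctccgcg
None of the marked matches overlap one another. Cdk1 held 2 CHR matches, 3 CCAAT boxes and 1 E2F match, Ccnb2 held 2 CHR matches and 3 CCAAT boxes, and Tyms held 1 E2F match alone. CCAAT boxes were present in 13 of the 16 mitosis promoters, against 34.0% of all 33469 promoters in the same RefSeq set. A CHR match was found in 5 of the 16, those of Ccnb2, Cdc20, Cdca8, Cdk1 and Kif23, against 16.2% of all promoters. All 5 also held a CCAAT box, and both stood together in 5.87% of all promoters. E2F matches were found in 3 of 4 S phase promoters (Mcm2, Mcm6 and Tyms) and in 1 of 16 mitosis promoters, against 1.73% of all. These are matches of letters in a fixed window and do not show binding.

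Between 3412311 and 5575171 reads per library fell on features, and a single read was worth 0.763 to 1.11 normalized counts. Among the 31 members, 27 had a mean of at least 5 normalized counts over the 6 libraries and were tested: 5 of S phase, 16 of mitosis, 3 of G1 and 3 inhibitors. The 4 left out were near the floor of 3 reads. Depth is therefore thin for this set of genes, with 6 reads or fewer in at least 1 library for members such as Ccnb1, Ccnb2 and Cenpf. A background level was taken from 835 olfactory receptor genes, although true expression of some of them in this tissue was not tested. Their 95th percentile was 2.05, 6.33 and 10.02 normalized counts in the control group. In the STZ group it was 1.86, 5.93 and 9.03. Here and below, the values of a group are in the order of its replicates 1, 2 and 3. Of the 31 members, 23 lay above this olfactory receptor level in all 6 libraries. All 3 control libraries shared a sequencing lane that no STZ library used, and an effect of the lane cannot be told apart from one of STZ. The 3 STZ libraries were each on a different lane. The spread within the STZ group can therefore include differences between lanes, which that of the control group cannot. The labels do not say that the replicates came from separate preparations beyond 1 sample per rat, and p-values measure the spread between these samples.

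Members were compared by limma on log2(normalized count + 1) over all 13486 features with a mean of at least 5, with Benjamini-Hochberg adjustment over all of them. Log2 fold changes are differences between STZ and control means of these log2 values. The added 1 shrinks them for genes of few reads, and they can differ from the ratio of the raw means, for Bub1b and Ccne1 even in sign. By limma, 0 of the 27 members had an adjusted p under 0.05, while 2.1% of all features tested did. At an unadjusted p under 0.05 there were 2 members, Cdk1 and Tyms, both lower in STZ, against 14.7% of all features in either direction and 6.99% lower. On the reads recovered from the values, edgeR called 0 of the 27 (2.13% of all features). DESeq2 gave an adjusted p for 9 of the 27 and called 0 of them (6.63% of the features to which it gave one). Of the 27 members, 20 had a lower and 7 a higher mean log2 value in STZ libraries, which is 74.1% lower against 49.5% of all features tested, and their median log2 fold change was -0.23 against 0.0056. The members were measured in the same 6 libraries, so their directions are not independent of one another. Even a called decrease in bulk tissue could not tell fewer dividing cells from less RNA per cell.

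**Figure D1:**
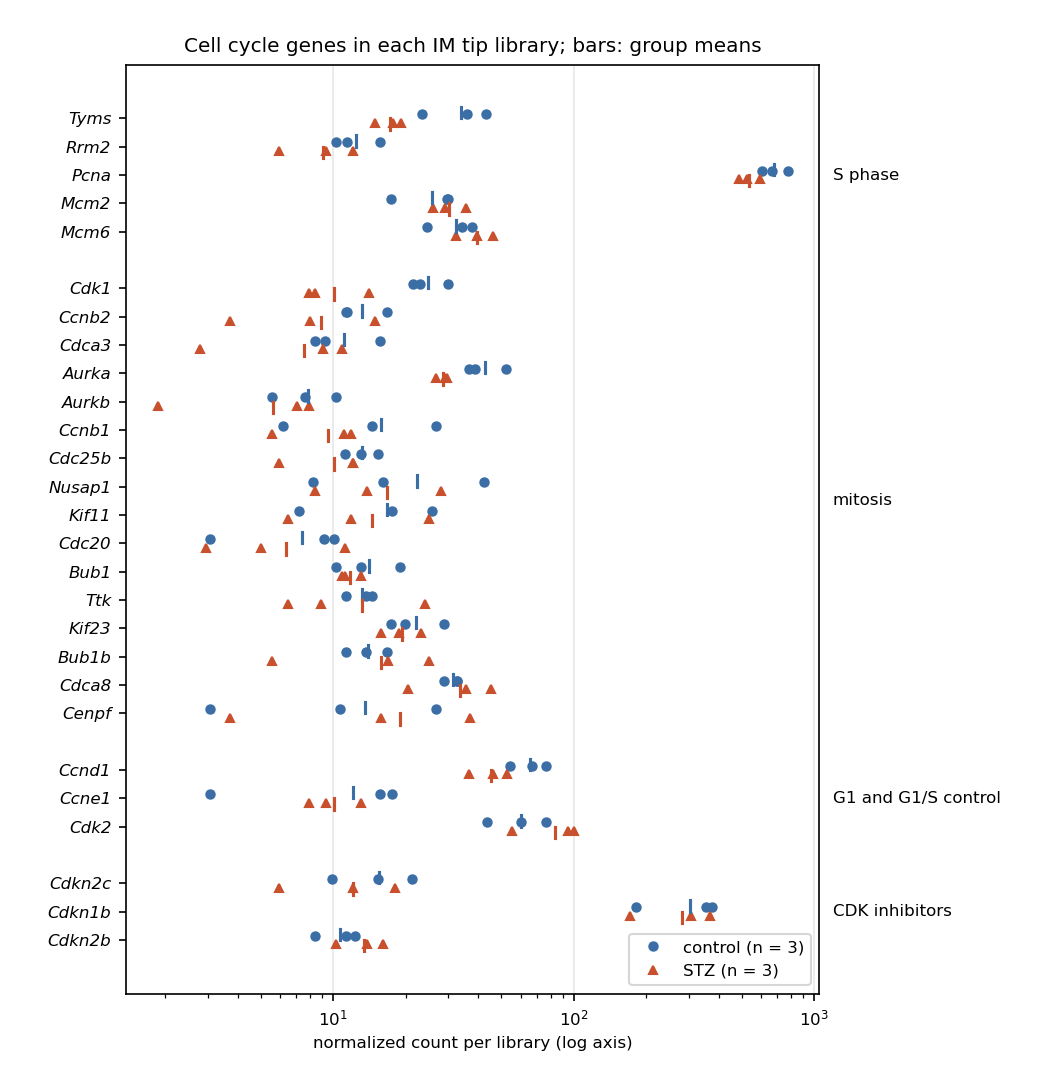
Normalized counts (log axis) of the 27 members tested, 1 line per gene and grouped by role, with 3 control libraries as circles, 3 STZ libraries as triangles and group means as bars. Circles and triangles separate fully for Tyms, Pcna, Cdk1, Aurka and Ccnd1, with the triangles to the left, and mix for the other 22 genes.

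Of the S phase members, Tyms, Pcna and Rrm2 had lower means in STZ libraries and Mcm2 and Mcm6 higher ones, with none past the threshold. Tyms, thymidylate synthase, makes the thymidine nucleotide for DNA and lies at rn4 chr9:112605431-112617720. It had 43.1, 35.9 and 23.4 normalized counts in control and 17.6, 14.8 and 19.1 in STZ libraries. Each STZ value was under each control value, and the mean was 49.6% lower. Its log2 fold change was -0.91 ± 0.32 (SE), with a 95% interval of -1.61 to -0.21, and limma's test gave an unadjusted p of 0.0153 and an adjusted p of 0.191. Pcna, the ring that holds DNA polymerase on its template, lies at rn4 chr3:120008714-120012673. Its normalized counts were 773, 665 and 604 in control and 524, 595 and 485 in STZ libraries. Here too the groups did not overlap, by a gap of under 10 normalized counts between control replicate 3 and STZ replicate 2. The log2 fold change of Pcna was -0.35 ± 0.18 (95% interval -0.75 to 0.06, limma adjusted p = 0.426). An exact two-sided permutation test of 3 against 3 libraries gave p = 0.1 for both Tyms and Pcna, the smallest p that this design allows.

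Rrm2, the regulated subunit of ribonucleotide reductase, had 10.3, 11.4 and 15.6 normalized counts in control and 9.29, 5.93 and 12.05 in STZ libraries. STZ replicate 3 lay among the control values and STZ replicates 1 and 2 lay under all of them. The log2 fold change was -0.44 (95% interval -1.43 to 0.55, limma adjusted p = 0.758). The helicase subunits Mcm2 and Mcm6, which open DNA ahead of the polymerase, had higher means in STZ libraries. Mcm2 had 17.4, 29.7 and 30.1 in control and 26, 35.6 and 29.1 in STZ libraries, a log2 fold change of 0.25 with a limma adjusted p of 0.82. Mcm6 had 24.6, 34.3 and 37.8 in control and 32.5, 39.6 and 46.2 in STZ libraries, a log2 fold change of 0.29 (95% interval -0.32 to 0.90, limma adjusted p = 0.729). The groups of both overlapped, and the interval of Mcm6 leaves out a fall to less than 0.803 of the control level. Summed over the 5 S phase members, normalized counts were 868, 776 and 711 in control and 609, 691 and 591 in STZ libraries, a ratio of means of 0.803, and the groups did not overlap. Without Pcna the sums were 95.3, 111 and 107 against 85.4, 95.9 and 106, with a ratio of 0.918, and they overlapped. The median log2 fold change of the S phase members was -0.35, and 3 of the 5 were lower.

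The log2 fold change was under 0 for 14 of the 16 mitosis members, with a median of -0.24, and none passed the threshold. For 7 of the 14 (Cdc20, Bub1, Bub1b, Ttk, Nusap1, Kif11 and Kif23) it turned above 0 with a single library left out. The raw mean of Bub1b was higher in STZ libraries, at 15.8 against 13.9 normalized counts, and that of Ttk was 13.2 in both groups. Cdk1, the kinase that drives entry into mitosis, had the lowest p of all members and lies at rn4 chr20:20018043-20044030. Its normalized counts were 21.5, 22.9 and 30.1 in control and 8.36, 7.91 and 14.1 in STZ libraries. All STZ values were under all control values, and the mean was 59.3% lower. The log2 fold change was -1.24 ± 0.37 (SE), with a 95% interval of -2.06 to -0.43, an unadjusted limma p of 0.00633 and an adjusted p of 0.126. The adjusted p was 0.155 by edgeR, and DESeq2 gave none. Over the 18 other settings that gave Cdk1 an adjusted p by limma or edgeR, it ran from 0.0618 to 0.342, and its log2 fold change without any single library ran from -1.49 to -1.10.

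Cyclins B1 and B2, which activate Cdk1, had lower means that overlapped between groups. Ccnb1 had 6.15, 14.5 and 26.7 normalized counts in control and 5.57, 11.9 and 11.04 in STZ libraries, a log2 fold change of -0.53 with a limma adjusted p of 0.766. Ccnb2 had 11.3, 11.4 and 16.7 in control and 3.71, 14.8 and 8.03 in STZ libraries, a log2 fold change of -0.67 with an adjusted p of 0.645. STZ replicate 1 was lowest for both cyclins. Cdc25b, the phosphatase that removes inhibitory phosphates from Cdk1, had 15.4, 12.97 and 11.1 in control and 12.1, 5.93 and 12.05 in STZ libraries, with a log2 fold change of -0.41. Cdca3, which helps to degrade Wee1, a kinase that holds Cdk1 back, had 9.23, 8.39 and 15.6 and 2.79, 10.9 and 9.03, with a log2 fold change of -0.61. For both, limma gave adjusted p-values of 0.774 and 0.727, and the STZ values lay partly among the control values.

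Among the kinases of the spindle, Aurka separated the groups. Aurora A, its product, acts at the centrosome, and the gene lies at rn4 chr3:163270482-163286473. Aurka had 52.3, 38.9 and 36.7 normalized counts in control and 29.7, 26.7 and 29.1 in STZ libraries. The STZ values were close together and all lower than the lowest control value. The log2 fold change was -0.55 ± 0.26 (95% interval -1.12 to 0.02, limma adjusted p = 0.36). Aurkb, the kinase of the chromosomal passenger complex, had 10.3, 7.63 and 5.57 in control and 1.86, 7.91 and 7.03 in STZ libraries, and Cdca8, borealin of the same complex, had 32.8, 32.8 and 28.9 and 20.4, 35.6 and 45.2. Their log2 fold changes were -0.55 and 0.03, with limma adjusted p-values of 0.808 and 0.985. Only 2 reads stood behind the lowest value of Aurkb, so the depth could not show a difference of its size.

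The checkpoint kinases and the activator of the anaphase-promoting complex showed no separation. Bub1 had 10.3, 12.97 and 18.9 normalized counts in control and 11.1, 10.9 and 13.1 in STZ libraries (log2 fold change -0.21, limma adjusted p = 0.901). Bub1b, BubR1 of the spindle checkpoint, had 11.3, 13.7 and 16.7 and 5.57, 16.8 and 25.1 (log2 fold change -0.02, limma adjusted p = 0.994). Ttk, the Mps1 kinase, had 11.3, 13.7 and 14.5 and 6.50, 8.90 and 24.1 (log2 fold change -0.20, limma adjusted p = 0.929). For Bub1b and Ttk, the STZ libraries spread from under the lowest to over the highest control library. Cdc20, which activates the anaphase-promoting complex, had 3.08, 9.15 and 10.02 in control and 11.1, 2.97 and 5.02 in STZ libraries, with a log2 fold change of -0.22 and a limma adjusted p of 0.945. At 3 to 12 reads per library Cdc20 was among the thinnest members.

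The motors and spindle proteins differed more between replicates than between groups. Kif11, the motor that pushes spindle poles apart, had 7.18, 17.5 and 25.6 normalized counts in control and 6.50, 11.9 and 25.1 in STZ libraries. Nusap1, which binds spindle microtubules, had 8.20, 16.02 and 42.3 and 8.36, 13.8 and 28.1. Cenpf, of the kinetochore, had 3.08, 10.7 and 26.7 and 3.71, 15.8 and 37.1. In all 3 genes the libraries stood in the same order in both groups, with replicate 1 lowest and replicate 3 highest, which is the order of the olfactory receptor level. Their log2 fold changes were -0.23, -0.25 and 0.40, with limma adjusted p-values of 0.927, 0.923 and 0.91. Kif23, a motor of the central spindle, had 17.4, 19.8 and 28.9 in control and 15.8, 18.8 and 23.1 in STZ libraries, with a log2 fold change of -0.17 (limma adjusted p = 0.901) and the same order of libraries. This order in both groups held for 6 of the 16 mitosis members, which adds Bub1b and Ttk, and for 1 of the 5 S phase members, Mcm6, so for 7 of the 27 members or 25.9%, against 10.8% of all features tested. Within each group the spread of these members thus followed the libraries' background level, and its part in the results was not tested. Tyms, Pcna, Ccnd1 and Aurka did not follow that order. In the control group Tyms, Pcna and Aurka stood in its reverse, with replicate 1 highest and replicate 3 lowest. In the STZ group they did not. Cdk1 followed the order of the olfactory receptor level in the control group. In the STZ group Cdk1 was highest in replicate 3, but replicates 1 and 2 were reversed, at 8.36 and 7.91 normalized counts.

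**Figure D2:**
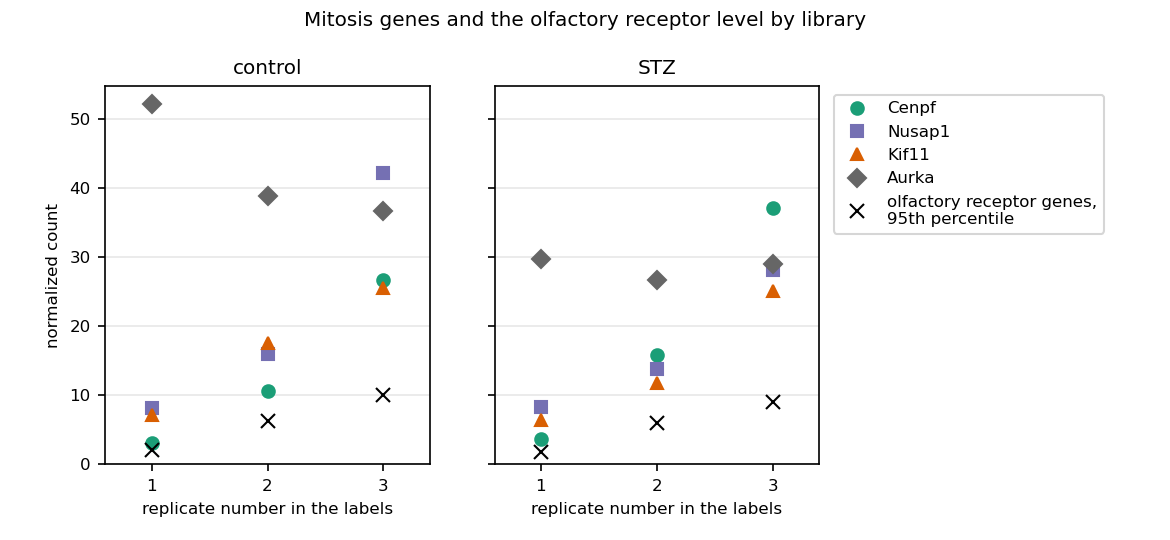
Normalized counts of Cenpf, Nusap1, Kif11 and Aurka and the 95th percentile of 835 olfactory receptor genes, by replicate number, with control libraries on the left and STZ libraries on the right. Cenpf, Nusap1 and Kif11 are lowest in replicate 1 and highest in replicate 3 of both groups, as the olfactory receptor level is, while Aurka is highest in control replicate 1 and lower in all STZ libraries.

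Summed over 18 mitosis members, normalized counts were 235, 267 and 357 in control and 159, 223 and 317 in STZ libraries, a ratio of means of 0.813. The groups overlapped, and each group's sums stood in the order of the olfactory receptor level. Without Cdk1 and Aurka the sums were 161, 205 and 291 in control and 121, 188 and 274 in STZ libraries, a ratio of 0.887. With both libraries of the highest olfactory receptor level left out, control replicate 3 and STZ replicate 3, which was chosen after seeing the data, 0 of the members passed in limma and the median log2 fold change was -0.32 for mitosis and -0.36 for S phase members.

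The G1 and G1/S genes went in different directions. Ccnd1, cyclin D1, which couples growth signals to the cycle, lies at rn4 chr1:205357234-205366810 and had 54.3, 76.3 and 66.8 normalized counts in control and 52.9, 36.6 and 46.2 in STZ libraries. Its STZ values were all lower, by a narrow margin between control replicate 1 and STZ replicate 1, with a log2 fold change of -0.53 ± 0.24 (95% interval -1.07 to 0.0057, limma adjusted p = 0.345). Cdk2, the partner of cyclins E and A, had 76.9, 43.5 and 60.1 in control and 94.7, 99.9 and 55.2 in STZ libraries. Its mean was higher in STZ rats, with a log2 fold change of 0.45 (95% interval -0.19 to 1.10, limma adjusted p = 0.549), and the groups overlapped through STZ replicate 3. Ccne1, cyclin E1, had 3.08, 17.5 and 15.6 and 9.29, 7.91 and 13.1, with a log2 fold change of 0.01 (limma adjusted p = 0.997). Control replicate 1 held only 3 reads of Ccne1, and without that library its log2 fold change was -0.69. The median of the 3 genes was 0.01 and their groups gave no common direction.

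The CDK inhibitors gave no common direction either. Cdkn1b, p27, which holds Cdk2 inactive in resting cells, had 353, 181 and 376 normalized counts in control and 308, 367 and 172 in STZ libraries. One library of each group was low, and the log2 fold change was -0.10 (95% interval -0.83 to 0.62, limma adjusted p = 0.948). Cdkn2c, p18, which blocks the kinases of cyclin D, had 15.4, 9.92 and 21.1 in control and 12.1, 5.93 and 18.1 in STZ libraries, with a log2 fold change of -0.40 (limma adjusted p = 0.816). Cdkn2b, p15, of the same family, had 11.3, 8.39 and 12.2 and 10.2, 13.8 and 16.1, with a log2 fold change of 0.30 (limma adjusted p = 0.844). The groups of all 3 inhibitors overlapped.

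**Figure D3:**
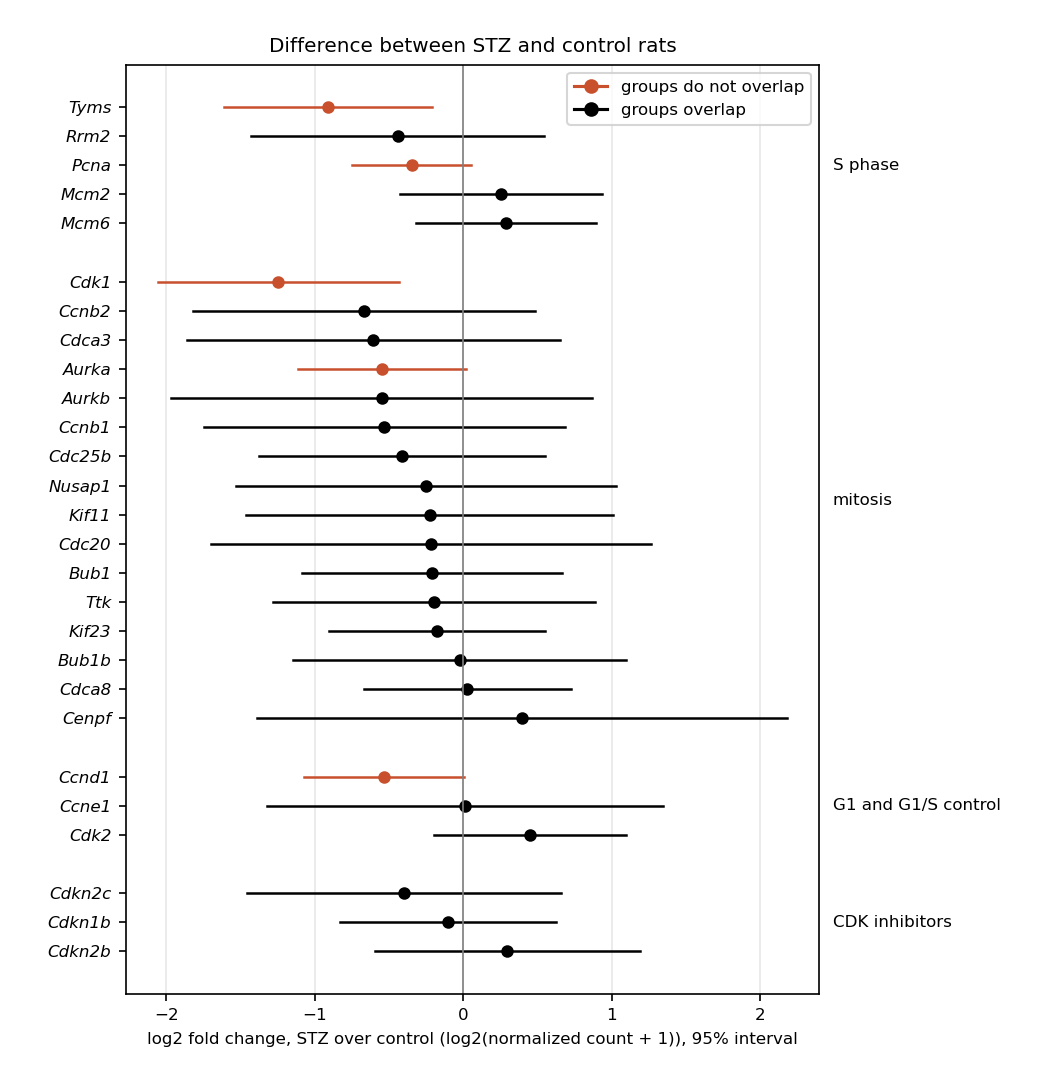
Difference between STZ and control means of log2(normalized count + 1) with its 95% interval from limma for the 27 members tested, grouped by role; genes whose groups do not overlap are colored. Intervals exclude 0 for Tyms and Cdk1 before adjustment, and those of Cenpf, Cdc20 and Aurkb are the widest among the mitosis genes.

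The 4 members under the minimum mean were E2f1, Ccna2, Plk1 and Cdkn2a. E2f1, the factor that turns on S phase genes, just missed the minimum, with 8.20, 4.58 and 8.90 normalized counts in control and 2.79, 3.96 and 1.004 in STZ libraries. Its groups did not overlap, with STZ lower, at 1 to 8 reads per library. Only 2 of the 6 libraries held E2f1 above the olfactory receptor level. Where a minimum mean of 1 let it into the limma fit, its log2 fold change was -1.25 ± 0.61 (SE) with an adjusted p of 0.479. Ccna2, cyclin A2, held 1 to 4 reads per library and the polo-like kinase Plk1 held 0 to 3, so that 3 reads, the floor, was passed in 1 library for Ccna2 and in 0 for Plk1. Cdkn2a held 1 to 6 reads. No difference could be detected in these 3 genes at this depth, and floors cover counting error only, since the cDNA was amplified by PCR without molecular identifiers.

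The remaining 14 names had no feature of exactly that name. Top2a and Ccnd2 appear under the UniProt entry names TOP2A_RAT and CCND2_RAT. TOP2A_RAT, topoisomerase II alpha, had 14.4, 23.6 and 45.6 normalized counts in control and 13, 27.7 and 47.2 in STZ libraries, again in the order of the olfactory receptor level (log2 fold change 0.04, limma adjusted p = 0.984). CCND2_RAT, cyclin D2, had 138, 175 and 145 in control and 209, 173 and 111 in STZ libraries (log2 fold change 0.07, limma adjusted p = 0.956). Mcm7, Ccne2 and Kif20a are part of features that merge them with the neighbors Ap4m1, RGD1310592 and Cdc23, so their reads cannot be assigned. The other 9 names, Mki67, Birc5, Mcm3, Mcm4, Mcm5, Rrm1, Ccnd3, Cdk4 and Cdk6, were not analysed here.

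The size of change that could have been called differs by role. The smallest t statistic among the called features was 4.41, and the standard error of a member times this value gives the fold it needed. Pcna needed a fold change of 1.74, and the median was 2.57-fold for S phase and 4.86-fold for mitosis members, up to 11.9-fold for Cenpf. Cdk1 needed 3.10-fold. A lower level of a mitosis gene by several fold could therefore have gone uncalled at this depth and number of rats, and the absence of calls does not show equal levels.

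Other genes of the cycle were taken from 4 lists of 175 names, of which 124 had a feature and 110 were tested. Neither limma nor edgeR called any of the 110 (limma 9 at an unadjusted p under 0.05, a smaller share than the 14.7% of all features), and DESeq2 called 1 of the 75 to which it gave an adjusted p, Gmnn. Of 42 other replication genes, 25 were lower and 17 higher, with a median log2 fold change of -0.03, and 5 did not overlap (11.9%, against 20.3% of all features), 4 of them lower. Of 35 other mitosis genes, 23 were lower and 12 higher, with a median of -0.15, and 2 did not overlap (5.71%), both lower. Of 26 other G1 genes and parts of the anaphase-promoting complex, 12 were lower, with a median of 0.03. Among them 4 did not overlap (15.4%), 3 of them lower. Of 7 other genes of growth arrest, 3 were lower, with a median of 0.17, and 1 did not overlap (14.3%), which was higher.

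Gmnn, geminin, which keeps DNA from being licensed again within a cycle, had the lowest p of the other replication genes. It had 119.9, 91.5 and 117 normalized counts in control and 64.1, 56.4 and 57.2 in STZ libraries, with a log2 fold change of -0.87 ± 0.21 (SE), a limma adjusted p of 0.0634 and a DESeq2 adjusted p of 0.0372. Rfc4, of the loader of the Pcna ring, had 236, 186 and 164 in control and 138, 105 and 107 in STZ libraries (log2 fold change -0.73, limma adjusted p = 0.12). The STZ values of Gmnn and Rfc4 were all lower than the control values. Rfc1, the large subunit of the same loader, had 590.5, 521 and 610.0 and 880.3, 1055 and 628, all higher in STZ libraries (log2 fold change 0.55, limma adjusted p = 0.253). Over 20 alternatives the adjusted p was under 0.05 in 5 for Gmnn, 4 for Rfc4 and 0 for Rfc1, with ranges of 0.0369 to 0.219, 0.045 to 0.367 and 0.107 to 0.669.

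Mad2l1, which carries the spindle checkpoint signal with Bub1b, was the other mitosis gene with the lowest p. It had 104, 77.04 and 79.03 normalized counts in control and 54.8, 45.5 and 34.1 in STZ libraries, with no shared range, a log2 fold change of -0.95 ± 0.25 and a limma adjusted p of 0.086, which was under 0.05 in 3 of 20 alternatives (range 0.0415 to 0.239). Racgap1, which works with Kif23 in cytokinesis, had 18.5, 25.2 and 24.5 and 5.57, 7.91 and 15.1, also without overlap (log2 fold change -1.26, limma adjusted p = 0.171). Bub3, the partner of Bub1, had 1013, 995 and 880.4 and 753, 908 and 712, with overlap (log2 fold change -0.29, limma adjusted p = 0.527). Mad2l1 and Racgap1 missed the threshold and were named for their low p. Of the 35 other mitosis genes tested, 12 had a log2 fold change above 0. The 2 without overlap were 5.71% of these genes, against 10.3% of all features with STZ lower.

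In the G1 list, Tfdp2, a partner of E2F factors, had 37.9, 30.5 and 35.6 normalized counts in control and 62.2, 52.4 and 63.2 in STZ libraries (log2 fold change 0.76, limma adjusted p = 0.139). Cdc26 and Anapc10, of the anaphase-promoting complex, had log2 fold changes of -0.53 and -0.51 with limma adjusted p-values of 0.194 and 0.329. The groups of these 3 genes did not overlap, Tfdp2 being higher and the other 2 lower. Ccnl1 was also lower without overlap, and these 4 genes were 15.4% of the 26 tested, against 20.3% of all features. Among the genes of growth arrest, the antiproliferative factor Btg1 had 309.6, 239.5 and 307 in control and 436, 417 and 340.3 in STZ libraries, all higher (log2 fold change 0.48, limma adjusted p = 0.264). Tob1 and Btg2, of the same family, had log2 fold changes of 0.38 and 0.17 with limma adjusted p-values of 0.738 and 0.801, and their groups overlapped.

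**Figure D4:**
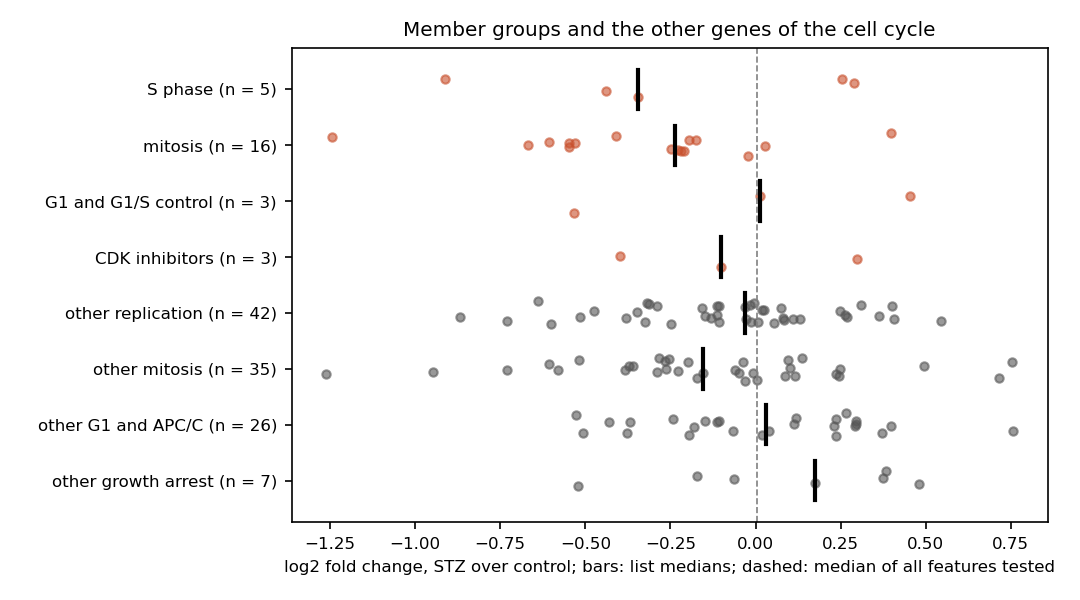
Log2 fold change, STZ over control, of each tested gene of the 4 member groups (colored) and of the 4 lists of other cell cycle genes (grey), with list medians as bars and the median of all 13486 features as a dashed line. Mitosis members have 14 of 16 points to the left of 0, and the other replication genes spread on both sides from -0.87 (Gmnn) to 0.55 (Rfc1).

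The tissue was checked by markers. Inner medullary collecting duct genes were high, with Aqp2, the water channel, at 2137 to 3641 normalized counts in control and 3824 to 7413 in STZ libraries. Of the 9 tested markers, 0 passed in limma, against 2.1% of all features. DESeq2 called 2 of the 8 to which it gave an adjusted p, against 6.63% of such features. All 9 had a log2 fold change above 0, with a median of 0.40, and 3 did not overlap (33.3%, against 20.3% of all features). Their sum was 32994 to 54837 in control and 42945 to 81997 in STZ libraries, a ratio of means of 1.38. Some markers of other cells passed the limma threshold, which 2.1% of all features tested did. Endothelial markers summed to between 7096 and 9194 normalized counts in control and between 3946 and 4337 in STZ libraries, with Emcn and Plvap lower and Vwf higher past the limma threshold, 3 of 7. Most of this sum was Emcn, with means of 5510 in control and 2095 in STZ libraries. Of the 7 markers, 4 had a log2 fold change under 0 and 3 above. Pecam1 had means of 780 in control and 774 in STZ libraries, and Tie1 was higher without overlap, at means of 71.9 and 104.7. Cdh5, at means of 288 and 196, and Tek, at 978 and 641, were lower without overlap. The groups of 6 of the 7 did not overlap, 4 lower and 2 higher in STZ libraries (85.7%, against 20.3% of all features). Thick ascending limb markers summed to between 1099 and 1886 in control and between 209.8 and 597 in STZ libraries, with Umod and Egf lower, 2 of 3. Urothelial markers summed to between 85.4 and 132 in control and between 440.1 and 517 in STZ libraries, with Upk3a and Upk1b higher, 2 of 5. Upk3a, with means of 35.3 in control and 344 in STZ libraries, made up most of the STZ sum. Proximal tubule markers summed to between 189 and 346 in control and between 54.4 and 114 in STZ libraries, with Kap lower, 1 of 3, and Cubn at 0 in 1 library of each group. Kap, with means of 217 in control and 47.0 in STZ libraries, made up most of this sum. Lrp2 had a higher mean in STZ libraries, 19.1 against 14.9, and Slc22a6 a lower one, and both overlapped. Interstitial markers summed to between 7655 and 9325 in control and between 4977 and 11117 in STZ libraries, with Pdgfra higher, 1 of 7. Leukocyte markers summed to 1249 to 2624 in control and 1649 to 2492 in STZ libraries, with 0 of 12 past the threshold and Cd3g at 0 in 1 control library. Red cell markers had 0 of 3 and thin limb markers 0 of 5 past the threshold. Such sums are weighted to their most abundant markers and do not measure the share of a cell type. The part of these cell types in the levels of Cdk1, Tyms, Ccnd1, Aurka and Pcna was not tested.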

How the data were processed

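IM tip RNA of 3 control and 3 STZ rats was made into cDNA with a PCR-based kit and sequenced on a HiSeq2000. Per the submitters' processing notes, STAR 2.3.1t placed the reads on rn4 and DESeq 1.16.0 was used for normalization, and the authors kept uniquely mapped reads and counted them by Ensembl RGSC3.4 gene. The values they deposited are a signal, that is a feature's read count over the size factor of its library. Which program counted, and whether by strand, is not given in the sources used here, so antisense genes could share reads. Among 27321 features, 527 merge genes that overlap and 2720 are intervals between genes. Columns were matched to rats through the sample labels.

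Each library's values came in steps of 1 size (100% were whole steps within 0.01 of a whole number), and dividing by the step gave the reads used by count tools as alternatives. In STZ replicates 2 and 3 the step was within a few percent of 1 and rests on the values alone. The main test was limma 3.58.1 (R 4.3.3) with a pseudocount of 1 before the log2 and a prior variance that follows the mean level, over 13486 features with a mean of at least 5, with a threshold of 0.05 on the Benjamini-Hochberg adjusted p. Single genes were also compared by an exact permutation test of 3 against 3. Other settings tried were a pseudocount of 0.5 or 5, a minimum mean of 1 or 20 or none, scaling to equal totals or by quantiles, limma with a flat or a robust prior variance, edgeR 4.0.16 (TMM, quasi-likelihood), DESeq2 1.42.0, the replicate number as a block in limma and in edgeR, and each library left out. Leaving out both libraries of the highest olfactory receptor level was added after seeing the data. Limma, edgeR and DESeq2 were also tested on simulated counts, drawn with the same dispersion for every feature. Tables and figures used Python 3.11.15, numpy 2.4.6, pandas 2.3.3 and matplotlib 3.10.9.

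The members and lists were chosen with earlier results of these data known. Every member was described, and of each other list the 3 genes with the smallest p were named, along with markers past the threshold. A gene left out of the lists of other cell cycle genes is not reported here. Promoters came from RefSeq on GRCr8, and all other coordinates are those of rn4 in the deposited table. A DESeq2 adjusted p that was not given was left out of its counts.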

Additional observations from a re-analysis of the deposited data

How the results depend on the processing

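In all 19 other settings, and in the 1 added after seeing the data, 0 of the members tested had an adjusted p under 0.05, and 16 of 27 kept the direction of their log2 fold change. Over all features the number called, 283 in the main setting, was 502 with quantile normalization, 31 by limma with a flat prior variance, 599 by DESeq2 and 88 to 352 with each library left out. It fell by over 1.5 times without control replicate 1 (182) or 2 (101) and without STZ replicate 1 (141), 2 (88) or 3 (163). Other replication genes called, 0 in the main setting, were 1 with a minimum mean of 20, 1 with equal library totals, 2 with quantile normalization and 1 by DESeq2. Other mitosis genes called were 1 with equal library totals. Median log2 fold changes moved to -0.0466 for S phase members with a minimum mean of 20 and, for G1 members, to -0.26 with a minimum mean of 1 and with no filter, -0.2717 by edgeR, -0.2742 by DESeq2 and -0.6623 to 0.3237 with each library left out (lowest without control replicate 1, highest without control replicate 3). A minimum mean of 20 left out Rrm2, whose mean was 10.8, from the S phase members. A minimum mean of 1, or none, added E2f1 to the G1 members, at a log2 fold change of -1.25. Those medians are thus of other sets of genes. For CDK inhibitors the median was 0.2651 without both libraries of the highest olfactory receptor level. Causes of the other changes were not tested.

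Direction turned for 11 low or unsettled genes. Ccne1 came to -0.057 with a pseudocount of 5, -0.023 with equal totals, -0.073 with quantile normalization and -0.27 by edgeR and by DESeq2, Bub1b to 0.023 with a pseudocount of 5, 0.051 with quantile normalization and 0.18 by edgeR and by DESeq2, and Cdca8 to -0.00015 with equal totals. Without both libraries of the highest olfactory receptor level, Cdc20 came to 0.11, Cdca8 to -0.27 and Cdkn1b to 0.41. With each library left out, the log2 fold change ran from -0.69 to 0.40 for Ccne1, -0.68 to 0.15 for Cdc20, -0.21 to 0.34 for Cdca8, -0.40 to 0.014 for Bub1, -0.45 to 0.55 for Bub1b, -0.71 to 0.16 for Ttk, -0.77 to 0.35 for Nusap1, -0.71 to 0.20 for Kif11, -0.32 to 0.03 for Kif23, -0.31 to 1.21 for Cenpf and -0.44 to 0.22 for Cdkn1b. The cause was not tested.

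The replicate numbers 1, 2 and 3 occur in both groups, on different animals. Libraries of equal number had deviations from their group means that correlated with r = 0.395, -0.061 and 0.323 over 9315 features. The values for replicates 1 and 3 were the highest of all pairs of a control and an STZ library. The olfactory receptor level also rose from replicate 1 to 3 in both groups. What libraries of equal number may share is not given in the labels and was not tested, and the main fit used no block. Not every library correlated best with its own number. With the replicate block, limma called 561 and edgeR 544 features, 0 members in both, and 2 other replication genes and 1 other mitosis gene in both. In edgeR with the block, Ccne1 came to -0.18 and Bub1b to 0.096.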

Other observations

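A few cell cycle genes are measured only together with a neighbor. The feature of Mcm7 and Ap4m1 held 274, 223 and 195 normalized counts in the control libraries and 224, 227 and 197 in those of STZ rats, in the order of replicates 1 to 3 (log2 fold change -0.08, limma adjusted p = 0.923). That of Ccne2 and RGD1310592 had 214, 168 and 246 in control and 248, 267 and 227 in STZ libraries (log2 fold change 0.25, limma adjusted p = 0.646). For Cdc23 and Kif20a the values were 337, 320 and 367 in control and 322, 366 and 286 in STZ libraries (log2 fold change -0.08, limma adjusted p = 0.923). The groups of all 3 features overlapped.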
